A study of Homo sapiens with 10 samples.

Results

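The keratin genes KRT7, KRT8, KRT14, KRT17, KRT18, KRT19, KRT80 and KRT81 were described in osteosarcoma cells. They were found by exact symbol among the 25593 entries that each of the 10 expression tables lists, and all 8 were found. The set was chosen with values of these libraries known, being selected on measured FPKM because KRT17 was lower with SET siRNA and KRT8 differed between the lines. The siRNA and line differences of the 8 genes are therefore descriptions and carry no test.

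The study sequenced RNA of 2 lines made from the human osteosarcoma line U2OS after 96 h with an siRNA. The groups were the line labelled p53 KO with SET siRNA (n = 2), the same line with control siRNA (n = 2), the line labelled p53 WT with SET siRNA (n = 3) and that line with control siRNA (n = 3). SET, a chaperone of histones, inhibits the phosphatase PP2A, and the series title asks which genes the interplay of p53 and SET governs. Both lines carry a CRISPR/Cas9 construct and went through selection and clone identification, so p53 status and the clone cannot be told apart. The design text contradicts itself, because it names SET as the CRISPR target while describing a p53 knockout, so the lines are called KO-labelled and WT-labelled. Libraries of a group are labelled biological replicates, with nothing on separate cultures, and a p-value here covers only their spread, which may be technical.

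Keratins are intermediate filament proteins of epithelia. An acidic type I keratin pairs with a basic type II keratin, and the pairs build filaments that desmosomes and hemidesmosomes anchor. KRT14, KRT17, KRT18 and KRT19 are type I keratins, and KRT7, KRT8, KRT80 and KRT81 are type II keratins. Type II genes lie in a cluster on chromosome 12 and type I genes in a cluster on chromosome 17, apart from KRT18, which lies beside KRT8 on chromosome 12. Osteosarcoma is a mesenchymal tumour, and mesenchymal cells build most of their filaments from vimentin.

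SET was 14.9 and 14.9 FPKM (fragments per kilobase of transcript, scaled to library size) in the KO-labelled libraries with SET siRNA, against 158 and 169.7 FPKM with control siRNA. SET in the WT-labelled line was 12.01 to 13.3 FPKM with SET siRNA and 121 to 126 FPKM with control siRNA. CDKN1A, a p53 target, averaged 19.4 FPKM with SET siRNA and 6.67 FPKM with control siRNA in the KO-labelled line, against 720.3 and 162 FPKM in the WT-labelled line. Between 13804 and 14153 genes reached an FPKM of 1 per library. Depth is not stated, and from the width of the deposited intervals each library held an estimated 14283625 to 21769841 fragments. Of the osteoblast and mesenchymal markers, COL1A1, SPARC, FN1 and RUNX2 were present, with RUNX2 averaging 5.45 to 12.9 FPKM over the groups. IBSP was listed at 0 in every library, and SP7 and TWIST1 averaged at most 0.0191 FPKM in any group. The osteocalcin gene BGLAP averaged at most 1.8e-13 FPKM in any group, though no library listed it at 0, so its level may not have been measured.

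The 8 keratins together summed to 647 ± 2.17 FPKM (SD, n = 2) with SET siRNA and 723 ± 82.6 FPKM (n = 2) with control siRNA in the KO-labelled line. In the WT-labelled line the sums were 970.2 ± 24.9 FPKM (n = 3) with SET siRNA and 1353 ± 49.7 FPKM (n = 3) with control siRNA. Per length, KRT81, KRT8 and KRT18 were the most abundant, KRT80 and KRT17 were intermediate, KRT14 and KRT7 stood at a few FPKM, and KRT19 was close to 0. The 8 genes made up 92.8 to 95.4% of the FPKM of every keratin gene listed. VIM, the vimentin gene, exceeded the sum of the 8 in 5 of 10 libraries, all 4 of the KO-labelled line and the first WT-labelled SET siRNA library. In bulk RNA, fewer cells expressing a keratin and less of its RNA per cell cannot be told apart.

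**Figure D1:**
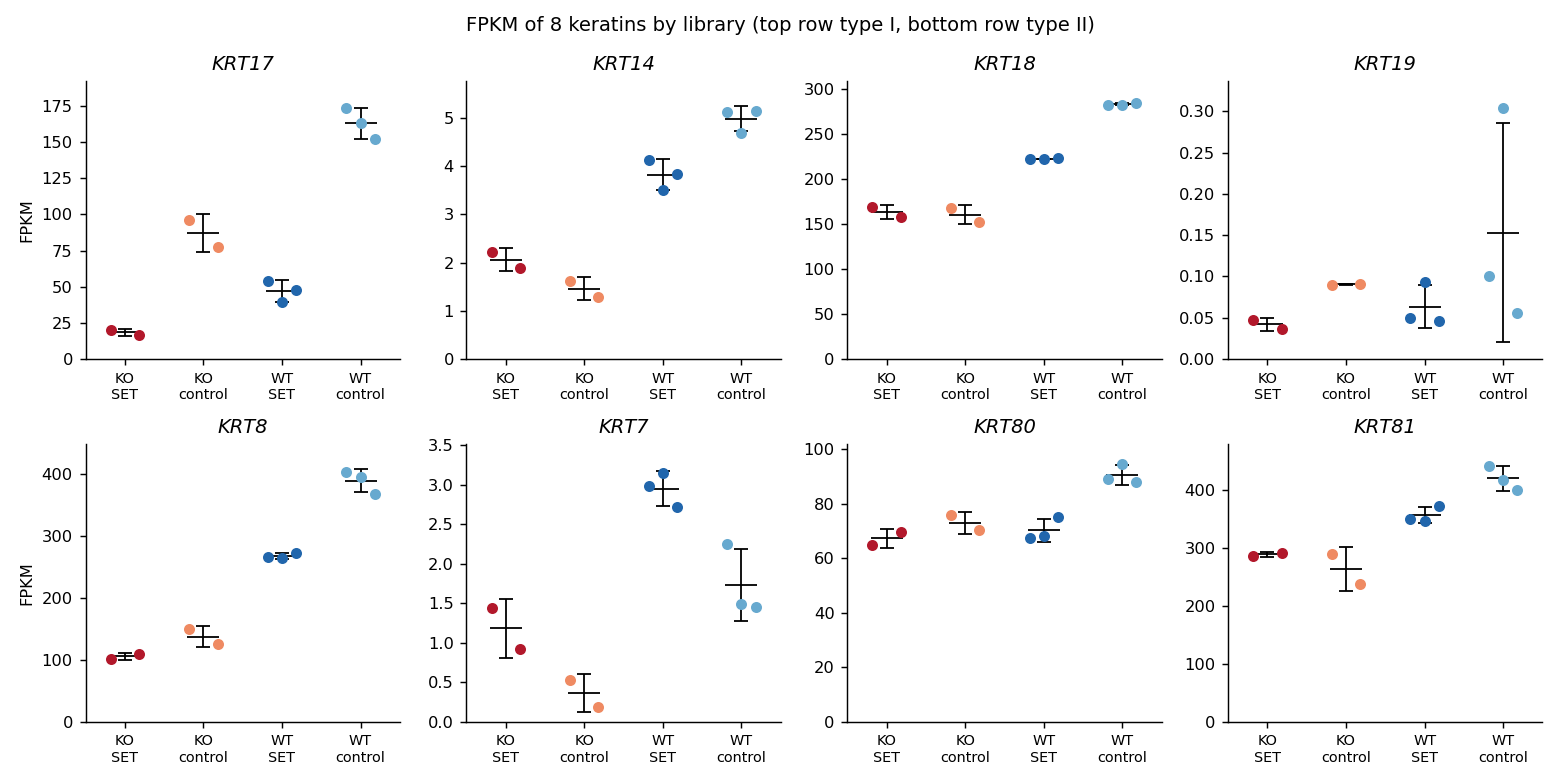
FPKM of the 8 keratins in each library, with type I genes in the top row and type II genes in the bottom row. Points are libraries, and bars are the group mean and SD (n = 2 for the KO-labelled and n = 3 for the WT-labelled groups). KRT17 is lowest with SET siRNA in both lines, KRT8 is lower in the KO-labelled line under both siRNAs, and KRT19 stays under 0.4 FPKM throughout.

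KRT17 (chromosome 17, 39775692 to 39780882 in the build of the files, which is not given in the sources used here) encodes a type I keratin of hair follicles and other skin appendages that wounding induces in epidermis. It had the strongest siRNA difference of the set, and this difference was part of why the set was chosen. KRT17 was 20.1 and 16.7 FPKM with SET siRNA, against 96.4 and 77.7 FPKM with control siRNA, in the KO-labelled line. WT-labelled libraries had 54.2, 39.5 and 47.4 FPKM with SET siRNA, against 173, 163 and 152 FPKM with control siRNA. No library with SET siRNA reached any library of the same line with control siRNA. The means differed 4.74-fold in the KO-labelled line and 3.46-fold in the WT-labelled line, lower with SET siRNA in each. KRT17 was also 1.87-fold lower in the KO-labelled than in the WT-labelled line with control siRNA, and 2.56-fold lower with SET siRNA. The 4 groups did not overlap, with the KO-labelled line with SET siRNA lowest, then the WT-labelled line with SET siRNA, the KO-labelled line with control siRNA and, highest, the WT-labelled line with control siRNA. The authors' interval spanned 3.28 to 9.36% of the value on either side. On the log2(FPKM + 1) scale the siRNA difference was -2.18 in the KO-labelled line and -1.78 in the WT-labelled line, and the difference between these responses was -0.40 (SE 0.20), given without a test.

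KRT14 (chromosome 17, 39738531 to 39743147) encodes the type I keratin of basal keratinocytes and is the closest relative of KRT17 in the set. The coding sequences of KRT17 and KRT14 matched at 86.5% of 1293 aligned bases in GENCODE 29 (GRCh38), where both genes lie on the minus strand at chr17:41619441-41624842 and chr17:41582279-41586921. The most similar 90-base stretch is shown because it limits how well short reads tell the genes apart. The lines give bases 589 to 678 of the KRT17 coding sequence and bases 682 to 771 of the KRT14 coding sequence, with the 3 bases that differ in capitals.
KRT17: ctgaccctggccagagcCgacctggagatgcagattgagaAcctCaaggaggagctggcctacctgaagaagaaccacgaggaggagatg
KRT14: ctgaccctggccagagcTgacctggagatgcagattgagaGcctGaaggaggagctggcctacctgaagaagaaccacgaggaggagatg
Of all 50-base windows of the KRT17 coding sequence, 17.1% also occurred in a transcript of another keratin gene or copy, most often KRT17P3. Of the KRT14 windows 24.7% did so, most often with KRT16. Genes other than keratins and their copies were not searched. The FPKM of these genes are uncertain to the extent that the counting split such reads.

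KRT14 was 2.23 and 1.90 FPKM with SET siRNA, against 1.63 and 1.29 FPKM with control siRNA, in the KO-labelled line. KRT14 in the WT-labelled line was 4.14, 3.504 and 3.83 FPKM with SET siRNA, against 5.12, 4.69 and 5.14 FPKM with control siRNA. SET siRNA libraries were thus all above the control siRNA libraries in the KO-labelled line and all below them in the WT-labelled line. The mean was 1.41 times the control siRNA mean in the KO-labelled line and 0.767 times it in the WT-labelled line. The 2 responses differed by 0.63 on the log2(FPKM + 1) scale (SE 0.13, limma adjusted p = 0.0119). The authors' intervals imply 53 and 59 fragments for KRT14 in the KO-labelled libraries with SET siRNA and 40 and 32 with control siRNA. They imply 85 to 94 fragments in the WT-labelled line with SET siRNA and 105 to 115 with control siRNA. Without the first KO-labelled SET siRNA library the adjusted p of this difference was 0.0577. KRT17 exceeded KRT14 in FPKM by 8.90 ± 0.160 times with SET siRNA and 59.8 ± 0.744 times with control siRNA in the KO-labelled line (SD, n = 2 each). In the WT-labelled line the ratio was 12.3 ± 0.918 with SET siRNA and 32.7 ± 2.77 with control siRNA (n = 3 each).

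KRT8 (chromosome 12, 53290971 to 53298868) and KRT18 (chromosome 12, 53342655 to 53346685) encode the partner keratins of simple epithelia. KRT8 was 101 and 109 FPKM with SET siRNA, against 149 and 125 FPKM with control siRNA, in the KO-labelled line. KRT8 in the WT-labelled line was 265, 263 and 272 FPKM with SET siRNA, against 403, 395 and 367 FPKM with control siRNA. No 2 groups overlapped, and the lines differed more than the siRNAs did. KRT8 was 2.84-fold lower in the KO-labelled line than in the WT-labelled line with control siRNA and 2.54-fold lower with SET siRNA. It was 1.302-fold lower with SET siRNA than with control siRNA in the KO-labelled line and 1.46-fold lower in the WT-labelled line. The responses differed by 0.17 on the log2 scale (SE 0.10), a value described without a test because KRT8 was chosen for its line difference. It was 0.29 without the first and 0.042 without the second KO-labelled control siRNA library. Of the 50-base windows of the KRT8 coding sequence, 45.5% also occurred in other keratin genes or copies, most often KRT8P3. The level of KRT8 is uncertain by the share of such reads.

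KRT18 was 169 and 158 FPKM with SET siRNA, against 168 and 153 FPKM with control siRNA, in the KO-labelled line. WT-labelled libraries had 222, 222 and 223 FPKM with SET siRNA, against 282, 283 and 285 FPKM with control siRNA. The siRNA groups overlapped in the KO-labelled line and stood apart in the WT-labelled line. The log2 difference between SET and control siRNA was 0.03 in the KO-labelled line and -0.35 in the WT-labelled line, and these responses differed by 0.38 (SE 0.07, limma adjusted p = 0.00799). This call held without each library in turn and under each other alternative run. KRT18 was 1.77-fold lower in the KO-labelled than in the WT-labelled line with control siRNA and 1.36-fold lower with SET siRNA. In the KRT18 coding sequence, 38.7% of 50-base windows also occurred in other keratin genes or copies.

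The ratio of KRT18 to KRT8 FPKM therefore varied over the groups, although the 2 proteins pair. It was 1.56 ± 0.156 with SET siRNA and 1.18 ± 0.0642 with control siRNA in the KO-labelled line (SD, n = 2 each). In the WT-labelled line the ratio was 0.834 ± 0.0126 with SET siRNA and 0.731 ± 0.0395 with control siRNA (n = 3 each). KRT18 exceeded KRT8 in all 4 KO-labelled libraries and was below KRT8 in all 6 WT-labelled libraries. The summed type I FPKM was 0.398 ± 0.0333 of the summed type II FPKM with SET siRNA and 0.526 ± 0.0134 with control siRNA in the KO-labelled line. The same quotient was 0.393 ± 0.0154 with SET siRNA and 0.501 ± 0.0128 with control siRNA in the WT-labelled line. Among type I keratins KRT17 held 9.97 ± 0.750% with SET siRNA and 34.9 ± 1.91% with control siRNA in the KO-labelled line, against 17.2 ± 2.20% and 36.1 ± 1.59% in the WT-labelled line.

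**Figure D2:**
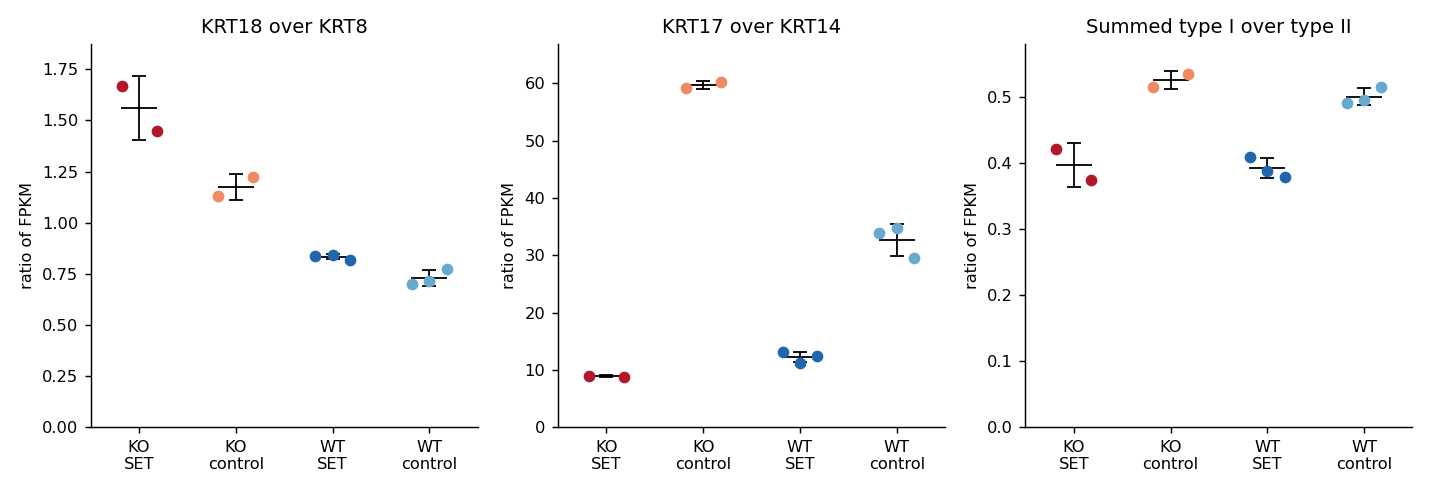
Ratio of FPKM per library for KRT18 over KRT8, KRT17 over KRT14, and summed type I over summed type II keratins of the set. Points are libraries, and bars are the group mean and SD. KRT18 over KRT8 is above 1 in each KO-labelled library and below 1 in each WT-labelled library, whereas type I over type II is lower with SET siRNA in both lines.

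KRT81 (chromosome 12, 52679697 to 52685299) encodes a type II keratin of the hair cortex and was the most abundant of the set per length. Its coding sequence matched that of KRT86, another hair keratin, at 94.2% of 1457 aligned bases in GENCODE 29 (GRCh38). There KRT81 lies on the minus strand at chr12:52285913-52291534, inside the span given for KRT86 on the plus strand, chr12:52249300-52309163. Bases 61 to 150 of each coding sequence are shown because all 90 are the same, so none is in capitals.
KRT81: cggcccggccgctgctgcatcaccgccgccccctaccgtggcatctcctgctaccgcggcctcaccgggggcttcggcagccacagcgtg
KRT86: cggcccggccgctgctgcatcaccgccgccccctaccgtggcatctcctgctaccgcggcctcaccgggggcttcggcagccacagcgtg
In all, 57.0% of 50-base windows of the KRT81 coding sequence also occurred in other keratin genes or copies and 49.1% in KRT86. The split of reads between these genes is therefore uncertain.

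KRT81 was 287 and 292 FPKM with SET siRNA, against 290.3 and 238 FPKM with control siRNA, in the KO-labelled line. WT-labelled libraries had 349.8, 348 and 373 FPKM with SET siRNA, against 443, 418 and 401 FPKM with control siRNA. The siRNA groups overlapped in the KO-labelled line, where the second control siRNA library was the low value, and did not overlap in the WT-labelled line. KRT81 was 1.59-fold lower in the KO-labelled than in the WT-labelled line with control siRNA and 1.23-fold lower with SET siRNA. The log2 responses to SET siRNA, 0.14 in the KO-labelled line and -0.24 in the WT-labelled line, differed by 0.38 (SE 0.11, limma adjusted p = 0.0482). That call was lost without either KO-labelled SET siRNA library or the second KO-labelled control siRNA library, with adjusted p of 0.115 to 0.124. It was also lost without any 1 of the 3 WT-labelled SET siRNA libraries and without the first or the second WT-labelled control siRNA library, with adjusted p of 0.0533 to 0.101. KRT86 itself stood at 8.94 to 13.4 FPKM over the libraries. KRT81 made up 44.7 ± 0.470% of the summed FPKM of the 8 keratins with SET siRNA and 36.4 ± 0.999% with control siRNA in the KO-labelled line, against 36.8 ± 0.596% and 31.1 ± 0.502% in the WT-labelled line.

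KRT80 (chromosome 12, 52562780 to 52585784) encodes a type II keratin found near desmosomes in differentiating epithelia, and its highest library was 1.46 times its lowest, the narrowest span of the set. It was 64.8 and 69.6 FPKM with SET siRNA, against 75.9 and 70.2 FPKM with control siRNA, in the KO-labelled line. KRT80 in the WT-labelled line was 67.2, 68.3 and 74.9 FPKM with SET siRNA, against 89.1, 94.6 and 87.7 FPKM with control siRNA. Only the WT-labelled libraries with control siRNA stood apart from all others, whereas the lines overlapped with SET siRNA. KRT80 was 1.09-fold lower with SET siRNA than with control siRNA in the KO-labelled line and 1.29-fold lower in the WT-labelled line. These responses differed by 0.25 on the log2 scale (SE 0.09, limma adjusted p = 0.0835), which did not pass the threshold of 0.05. The adjusted p was 0.0459 without the third WT-labelled SET siRNA library and 0.0451 without the first KO-labelled control siRNA library. Only 1.22% of the 50-base windows of its coding sequence occurred in other keratin genes or copies.

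KRT7 (chromosome 12, 52626954 to 52642709) encodes a type II keratin of glandular and ductal epithelia, and it was the member of the set that was higher with SET siRNA in both lines. It was 1.45 and 0.922 FPKM with SET siRNA, against 0.531 and 0.193 FPKM with control siRNA, in the KO-labelled line. KRT7 in the WT-labelled line was 2.98, 3.15 and 2.72 FPKM with SET siRNA, against 2.25, 1.495 and 1.45 FPKM with control siRNA. The siRNA groups did not overlap in either line, whereas the KO-labelled libraries with SET siRNA reached the lowest WT-labelled libraries with control siRNA to within the authors' intervals. The mean was 3.27 times the control siRNA mean in the KO-labelled line and 1.70 times it in the WT-labelled line. The authors' intervals imply only 36 and 30 fragments with SET siRNA and 14 and 5 with control siRNA in the KO-labelled line, against 69 to 80 and 31 to 53 in the WT-labelled line. The log2(FPKM + 1) responses, 0.68 in the KO-labelled line and 0.54 in the WT-labelled line, differed by 0.14 (SE 0.23, limma adjusted p = 0.692), which leaves a wide range for the difference. Its sign turned without the second KO-labelled control siRNA library (-0.040) or the first KO-labelled SET siRNA library (-0.034). KRT7 was 4.79-fold lower in the KO-labelled than in the WT-labelled line with control siRNA and 2.49-fold lower with SET siRNA.

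KRT19 (chromosome 17, 39679869 to 39684641), the type I keratin without a tail domain that often accompanies KRT7, was not expressed at a level these libraries measure, which goes against its place among expressed keratins. It stood at 0.0364 to 0.303 FPKM with a median of 0.0726 over the 10 libraries, and the authors' interval spanned 81.6 to 150% of the value on either side. The intervals imply 1 to 6 fragments per library. No library reached 1 FPKM for KRT19, so it was not tested, and no fold is given.

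Set beside all 14813 tested genes, the 7 keratins that reached the FPKM minimum stood as follows, and the rule that chose them used these contrasts, so nothing is read from the counts. With SET siRNA in the KO-labelled line, 3 of the 7 (KRT17, KRT8 and KRT80) were below control siRNA without overlap, where 31.4% of tested genes were, and 2 (KRT7 and KRT14) were above it, where 36% were. In the WT-labelled line 6 of the 7 were below control siRNA without overlap, where 28.6% of tested genes were, and KRT7 was above it, where 35.7% were. In the KO-labelled line with control siRNA all 7 were below the WT-labelled line without overlap, where 28.8% of tested genes were and 34.3% were above it. With SET siRNA 6 of the 7 were below it, where 35.4% were and 34.7% were above it, and KRT80 overlapped. By the adjusted p, 37.6% of tested genes were called with SET siRNA in the KO-labelled line and 54.8% in the WT-labelled line. Between the lines 48.4% were called with SET siRNA and 47.9% with control siRNA. The median log2 change of all tested genes lay between -0.03 and 0.04 in the 5 contrasts.

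**Figure D3:**
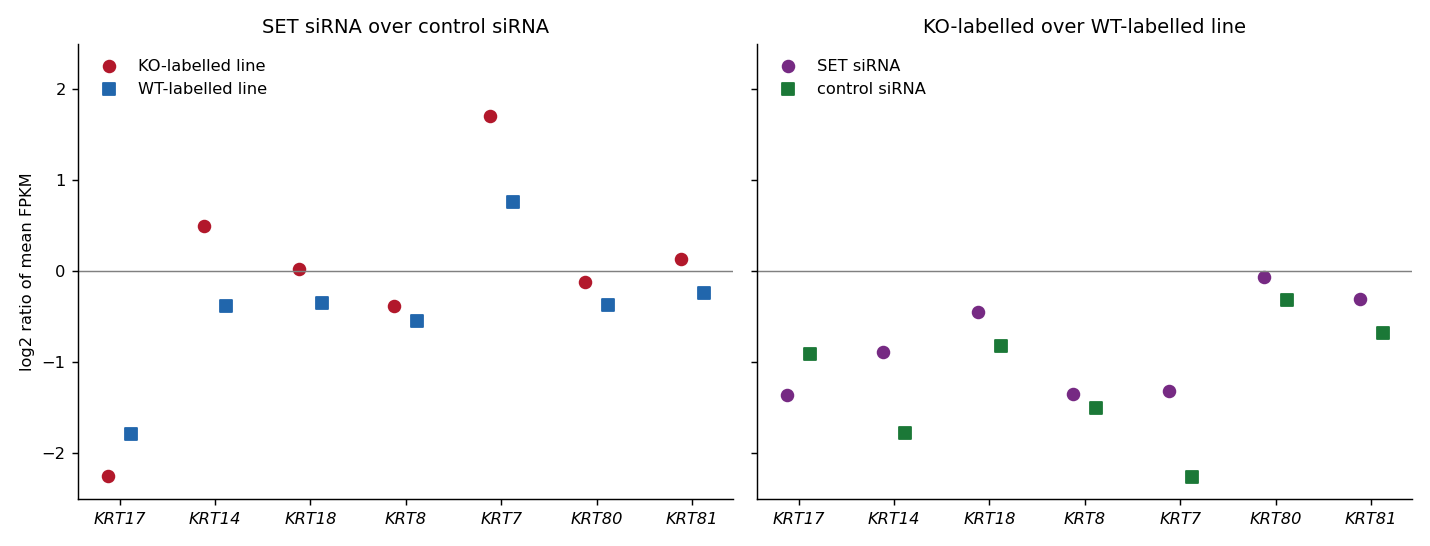
Log2 ratio of mean FPKM for the 7 keratins above the FPKM minimum. The left panel gives SET siRNA over control siRNA in each line, and the right panel gives the KO-labelled over the WT-labelled line under each siRNA. KRT17 lies lowest on the left in both lines (ratios of 0.211 in the KO-labelled and 0.289 in the WT-labelled line), KRT7 lies highest, and all points on the right are below 0.

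The difference between the 2 siRNA responses was not used to choose KRT7, KRT14, KRT18, KRT80 and KRT81. Of these 5 tested keratins, 3 (KRT14, KRT18 and KRT81) had a higher response in the KO-labelled than in the WT-labelled line at a limma adjusted p under 0.05, where 8.6% of tested genes did and 19.1% were called in either direction. The other 2, KRT7 and KRT80, had positive estimates that were not called. The set was proposed with these data in view, so this count is not independent of the choice.

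The genes beside the keratins differed between the lines by values centred near 0. The 20 tested non-keratin genes nearest to the chromosome 12 keratins, 10 on either side, spanned 51632508 to 53687427. Their median log2 difference between the KO-labelled and WT-labelled line was -0.02 with SET siRNA, with a range of -0.83 to 0.57, and -0.05 with control siRNA, with a range of -0.93 to 0.51. KRT8 stood at -1.34 with SET siRNA and -1.50 with control siRNA, and KRT7 at -0.86 with SET siRNA and -1.004 with control siRNA, both below all 20 neighbours under each siRNA. KRT18 was at -0.44 with SET siRNA and -0.82 with control siRNA, with 2 and 1 of the 20 neighbours below it. KRT81 was at -0.30 with SET siRNA and -0.68 with control siRNA, with 5 and 2 of the 20 below it. KRT80 was at -0.06 with SET siRNA and -0.31 with control siRNA, with 9 and 6 of the 20 below it. On chromosome 17 the 20 neighbours (38296507 to 40129754) had medians of 0.03 with SET siRNA and -0.02 with control siRNA. KRT17 stood at -1.30 with SET siRNA, below all 20, and at -0.90 with control siRNA, where only LOC730755 was lower, at -1.77. KRT14 stood at -0.66 with SET siRNA and -1.29 with control siRNA, with 1 of the 20 below it under each.

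**Figure D4:**
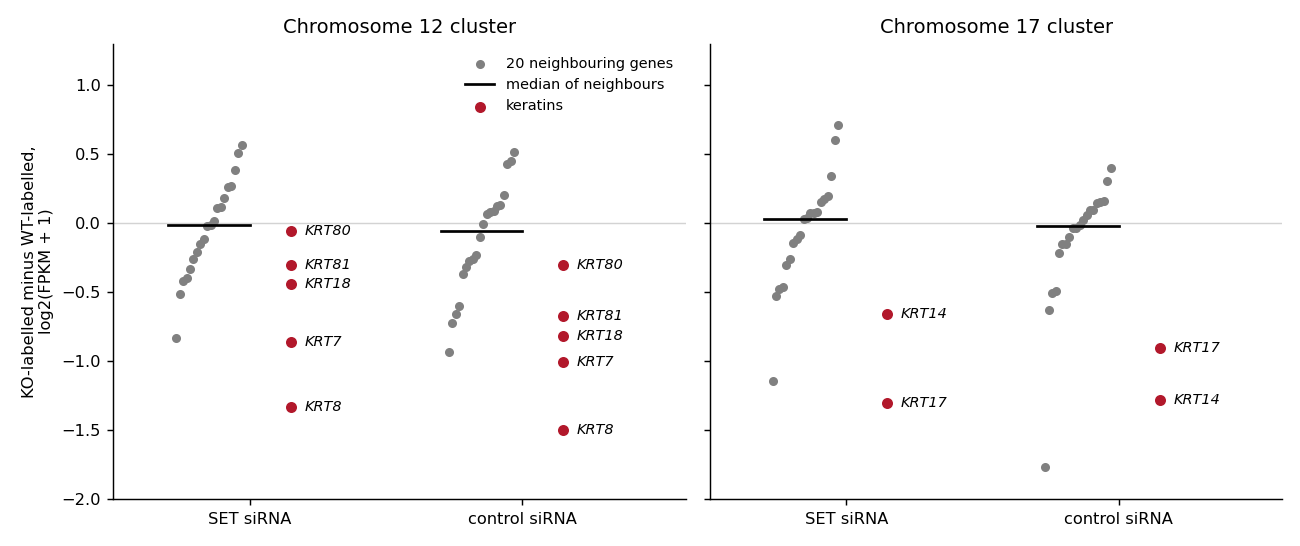
Difference between the KO-labelled and WT-labelled line on the log2(FPKM + 1) scale for the keratins of each cluster (red) and their 20 nearest tested non-keratin genes (grey, sorted by value within each siRNA), with the neighbours' median as a black line. The medians lie between -0.05 and 0.03, and KRT8 lies below all 20 neighbours under both siRNAs.

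Among all tested non-keratin genes, those whose centred log2(FPKM + 1) profile over the 10 libraries was most like KRT17 were ANXA8L2, EDN2, ANXA8, ANXA8L1 and TNNT2. Their root mean square differences from KRT17 were 0.335, 0.335, 0.350, 0.364 and 0.377, against a spread of KRT17 itself of 1.12. EDN2, which encodes the vasoactive peptide endothelin 2, was 0.390 ± 0.140 FPKM with SET siRNA and 5.91 ± 0.407 FPKM with control siRNA in the KO-labelled line (SD, n = 2 each). EDN2 in the WT-labelled line was 1.74 ± 0.271 FPKM with SET siRNA and 7.31 ± 1.51 FPKM with control siRNA (n = 3 each). The 3 annexin A8 genes are near-identical copies, so their separate values are uncertain. The genes most like KRT8 were FBXO2, SFN, MMP9, IFI44 and FAP, with differences of 0.111, 0.114, 0.141, 0.154 and 0.178 against a spread of KRT8 of 0.739. In both lists the pseudocount of 1 shrinks changes of low genes, so these can match in profile while their folds are larger. IFI44 averaged 0.450 FPKM with SET siRNA and 1.05 FPKM with control siRNA in the KO-labelled line. In the WT-labelled line IFI44 averaged 3.25 and 5.61 FPKM. SFN encodes 14-3-3 sigma, a p53 target whose protein binds keratins. It was 63.6 ± 2.55 FPKM with SET siRNA and 66.8 ± 10.6 FPKM with control siRNA in the KO-labelled line (SD, n = 2 each), against 156 ± 5.17 and 224 ± 19.9 FPKM in the WT-labelled line (n = 3 each). Within the set, the closest profiles were those of KRT18 and KRT81 (0.108), and KRT17 lay at least 0.773 from each of the other 6 that were tested.

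Of 47 other keratin genes in the tables, 39 stayed under 1 FPKM in all 10 libraries and 7 were tested. KRT5, the usual type II partner of KRT14, was 0.0876 to 0.394 FPKM, and KRT16, a wound keratin close to KRT14 and KRT17, was 0.0381 to 0.372 FPKM. KRT15, a type I keratin of basal and hair follicle stem cells, was 1.73 and 1.13 FPKM with SET siRNA and 0.486 and 0.493 FPKM with control siRNA in the KO-labelled line. KRT15 in the WT-labelled line was 8.69, 9.73 and 10.3 FPKM with SET siRNA and 6.96, 6.41 and 7.20 FPKM with control siRNA. It rose with SET siRNA by 0.69 on the log2 scale in the KO-labelled line (SE 0.12, limma adjusted p = 0.00206) and by 0.43 in the WT-labelled line (SE 0.098, limma adjusted p = 0.00503). KRT15 was lower by a log2 difference of -2.40 in the KO-labelled than in the WT-labelled line with control siRNA (SE 0.11, limma adjusted p = 6.9e-07).

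KRT34, a type I hair keratin, was 5.91 and 5.95 FPKM with SET siRNA and 3.24 and 2.83 FPKM with control siRNA in the KO-labelled line, against 14.9 to 15.99 and 14.4 to 18.03 FPKM in the WT-labelled line. It rose by 0.78 with SET siRNA in the KO-labelled line (SE 0.0995, limma adjusted p = 0.000408), and its responses differed between the lines by 0.81 (SE 0.13, limma adjusted p = 0.00403). KRT75, a type II keratin of the hair follicle companion layer, also rose in the KO-labelled line, by 0.62 (SE 0.093, limma adjusted p = 0.000965). Of the 7 tested, 3 rose and none fell with SET siRNA in the KO-labelled line, where 19.8% of all tested genes rose and 17.9% fell. In the WT-labelled line 2 rose (KRT15 and KRT222) and 1 fell (KRT33B), where 30.8% of all tested genes rose and 24% fell. KRT33B reached 1 FPKM only in the first and second WT-labelled control siRNA libraries (1.28 and 1.01 FPKM). The FPKM minimum thus favoured both its fall and its lower call in the KO-labelled line with control siRNA. Between the lines none of the 7 was higher and 5 were lower in the KO-labelled line with control siRNA, where 25.7% of all tested genes were higher and 22.2% lower. With SET siRNA none was higher and 2 (KRT15 and KRT34) were lower, where 23.6% of all tested genes were higher and 24.8% lower. Their median log2 differences in these 4 contrasts were 0.23, -0.03, -0.55 and -0.23.

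**Figure D5:**
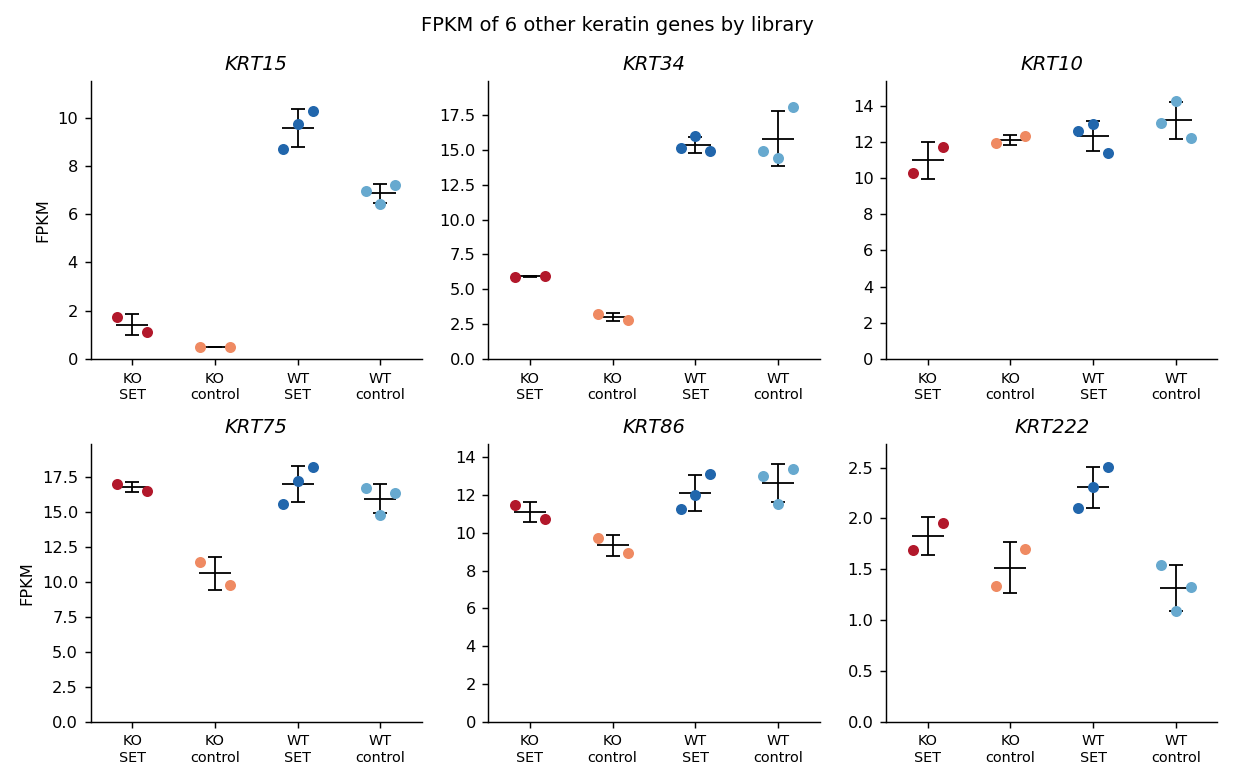
FPKM of 6 other keratin genes in each library. Points are libraries, and bars are the group mean and SD (n = 2 for the KO-labelled and n = 3 for the WT-labelled groups). KRT15 and KRT34 are lower in the KO-labelled line under both siRNAs, whereas KRT10 differs little between groups.

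Most of the tested genes that anchor keratin filaments were lower in the KO-labelled line. Of 26 desmosome, hemidesmosome and linker genes 16 were tested, and in the KO-labelled line 1 was higher and 12 were lower than in the WT-labelled line with SET siRNA, and none was higher and 11 were lower with control siRNA. Over all tested genes 23.6% were higher and 24.8% lower with SET siRNA, and 25.7% were higher and 22.2% lower with control siRNA. The median log2 difference of the 16 was -0.39 with SET siRNA and -0.52 with control siRNA. LAMA3 and LAMB3, which encode laminin chains of the epithelial basement membrane, were lower in the KO-labelled line with control siRNA by log2 differences of -1.34 and -1.10. In the KO-labelled groups LAMA3 and COL17A1 averaged at most 0.651 and 0.453 FPKM. Both passed the FPKM minimum only through WT-labelled libraries, which favours lower calls in the KO-labelled line. ITGA6, a subunit of the hemidesmosome integrin, was lower by log2 differences of -1.17 with SET siRNA and -1.09 with control siRNA. With SET siRNA, 2 of the 16 rose and 5 fell in the KO-labelled line (median -0.05), and 5 rose and 8 fell in the WT-labelled line (median -0.10). The shares of all tested genes were 19.8% higher and 17.9% lower in the KO-labelled line, and 30.8% higher and 24% lower in the WT-labelled line. Without the second KO-labelled SET siRNA library 1 gene rose in the KO-labelled line. JUP, which encodes plakoglobin of desmosomes, fell by 0.69 in the KO-labelled line (SE 0.079) and by 0.53 in the WT-labelled line (SE 0.064). LAMB3 rose in both lines, by 0.84 in the KO-labelled and 0.77 in the WT-labelled line. The desmosome plaque gene DSP averaged at most 0.369 FPKM in any group, and the cadherin gene DSC1 was listed at 0 throughout.

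Vimentin, lamins and other filament genes that are not keratins were set beside them. Of 16 such genes 9 were tested, and none rose and 5 fell in the KO-labelled line (median log2 change -0.20), while 1 rose and 6 fell in the WT-labelled line (median -0.32). Of all tested genes, 19.8% rose and 17.9% fell in the KO-labelled line, and 30.8% rose and 24% fell in the WT-labelled line. The count of falls in the KO-labelled line was 3 without either of its SET siRNA libraries. LMNB1, which encodes lamin B1, fell by 0.92 in the KO-labelled line (SE 0.058) and by 1.48 in the WT-labelled line (SE 0.047). VIM fell by 0.20 in the KO-labelled line (SE 0.064, limma adjusted p = 0.0398). In the WT-labelled line VIM fell by 0.42 (SE 0.053, limma adjusted p = 0.00015). BFSP1 averaged at most 0.647 FPKM in the KO-labelled groups, so only WT-labelled libraries carried it past the FPKM minimum. This favours its lower calls in the KO-labelled line. Between the lines 4 of the 9 were higher and 4 lower in the KO-labelled line with SET siRNA, and 3 were higher and 3 lower with control siRNA (medians 0.10 and 0.13), where 23.6% of all tested genes were higher and 24.8% lower with SET siRNA, and 25.7% higher and 22.2% lower with control siRNA.

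All 18 genes of proteins that bind, fold or act on keratins were tested. In the KO-labelled line 1 rose and 4 fell with SET siRNA (median -0.02), and in the WT-labelled line 3 rose and 7 fell (median -0.08). These counts stand beside 19.8% of all tested genes that rose and 17.9% that fell in the KO-labelled line, and 30.8% and 24% in the WT-labelled line. TRIM29, whose product binds keratin filaments, fell by 1.19 in the KO-labelled line (SE 0.095) and by 0.84 in the WT-labelled line (SE 0.078). Between the lines 3 were higher and 5 lower in the KO-labelled line with SET siRNA (median -0.02), and 7 were higher and 8 lower with control siRNA (median -0.01). The shares over all tested genes were 23.6% higher and 24.8% lower with SET siRNA, and 25.7% higher and 22.2% lower with control siRNA. SFN was lower by -1.28 with SET siRNA and -1.73 with control siRNA, and FAM83H, a regulator of keratin filament assembly, by -0.89 with SET siRNA and -0.68 with control siRNA. These counts moved with single libraries. Without the first or the second KO-labelled SET siRNA library none rose and 2 fell in the KO-labelled line, and without the second WT-labelled control siRNA library or the third WT-labelled SET siRNA library 3 fell in that line. None rose in the KO-labelled line without the second KO-labelled control siRNA library or without the second or the third WT-labelled SET siRNA library. Without the second KO-labelled control siRNA library, 3 were higher and 4 lower than in the WT-labelled line with control siRNA, and 4 were higher without the first or second WT-labelled control siRNA library. Without the first KO-labelled SET siRNA library 1 was higher with SET siRNA.

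Of 21 transcription factors known to act on keratin genes 17 were tested. With SET siRNA 4 rose and 5 fell in the KO-labelled line (median -0.03), and 6 rose and 6 fell in the WT-labelled line (median -0.05). Among all tested genes 19.8% rose and 17.9% fell in the KO-labelled line, and 30.8% rose and 24% fell in the WT-labelled line. GLI1 and GLI2, effectors of Hedgehog signalling, fell by 0.98 and 0.95 in the WT-labelled line, and their responses differed between the lines by 0.70 and 0.87 (SE 0.13 and 0.11). FOSL1, an AP-1 subunit, rose by 1.00 in the KO-labelled line (SE 0.086) and by 0.63 in the WT-labelled line (SE 0.070). KLF5, a factor of basal and gut epithelium, fell by 0.68 in the KO-labelled line (SE 0.068) and by 0.60 in the WT-labelled line (SE 0.056). TP63, the p53 family factor of basal epithelia, averaged at most 0.0768 FPKM in any group. Between the lines 4 were higher and 4 lower in the KO-labelled line with SET siRNA, and 5 were higher and 5 lower with control siRNA (medians 0.08 and -0.01), beside 23.6% higher and 24.8% lower among all tested genes with SET siRNA, and 25.7% higher and 22.2% lower with control siRNA. In the KO-labelled line 2 rose without its second control siRNA library, 3 fell without its first SET siRNA library, and 1 rose and 3 fell without its second SET siRNA library.

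Markers of epithelia other than keratins stayed low, and their part in the keratin levels was not tested. Of 25 such markers 14 were under 1 FPKM in all libraries, among them GRHL2 at 0.0342 FPKM or less and ESRP2 at 0.129 FPKM or less as group means. Their summed FPKM was 26.6 to 27.6 with SET siRNA and 26.4 to 28.1 with control siRNA in the KO-labelled line, and 36.2 to 38.5 with SET siRNA and 28.97 to 29.7 with control siRNA in the WT-labelled line. Of 11 tested, 3 rose and 2 fell with SET siRNA in the KO-labelled line (median 0.10), and 4 rose and none fell in the WT-labelled line (median 0.03). Across all tested genes 19.8% rose and 17.9% fell in the KO-labelled line, and 30.8% rose and 24% fell in the WT-labelled line. EPCAM, an epithelial adhesion gene, rose by 0.91 in the KO-labelled line (SE 0.13) and by 0.84 in the WT-labelled line (SE 0.11). The 2 that fell in the KO-labelled line were the mucin gene MUC1, by 0.63 (SE 0.17), and the claudin gene CLDN4, by 0.50 (SE 0.084). The MUC1 call was lost without the first KO-labelled SET siRNA library or the first KO-labelled control siRNA library. GRHL3, an epidermal transcription factor, rose by 1.79 in the WT-labelled line (SE 0.11). GRHL3 and CDH1 averaged at most 0.346 and 0.575 FPKM in the KO-labelled groups. They passed the FPKM minimum only through WT-labelled libraries, which favours their lower calls between the lines. In the WT-labelled line GRHL3 averaged 0.965 FPKM with control siRNA and 5.77 FPKM with SET siRNA, and CDH1 0.950 and 1.35 FPKM. The minimum thus also favours their rises in that line. In the KO-labelled against the WT-labelled line none was higher and 3 were lower with SET siRNA, and 2 were higher and 4 lower with control siRNA (medians 0.04 and -0.03), where all tested genes gave 23.6% higher and 24.8% lower with SET siRNA, and 25.7% higher and 22.2% lower with control siRNA. In the KO-labelled line 1 rose and 1 fell without its first SET siRNA library, and 1 fell without its first control siRNA library. With control siRNA 1 was higher and 2 were lower than in the WT-labelled line without the second KO-labelled control siRNA library, and 1 was higher without the first. With SET siRNA 1 was higher without the second or the third WT-labelled SET siRNA library.

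Most of the tested squamous markers were lower in the KO-labelled line. Of 20 such genes 7 were tested, and none was higher and 5 were lower in the KO-labelled line under either siRNA (median -0.73 with SET siRNA and -0.85 with control siRNA). By comparison 24.8% of all tested genes were lower with SET siRNA and 22.2% with control siRNA, and 23.6% and 25.7% were higher. IVL and SERPINB5, both among the lower genes, averaged at most 0.161 and 0.0585 FPKM in the KO-labelled groups. Only WT-labelled libraries carried these genes past the FPKM minimum, which favours lower calls in the KO-labelled line. SERPINB5 averaged 0.903 FPKM with control siRNA and 2.96 FPKM with SET siRNA in the WT-labelled line. The minimum thus also favours its rise there. FLG, which encodes filaggrin, averaged 0.678 FPKM with SET siRNA and 1.37 FPKM with control siRNA in the KO-labelled line, against 9.14 and 10.98 FPKM in the WT-labelled line. With SET siRNA 2 rose and 2 fell in the KO-labelled line (median -0.07), and likewise 2 rose and 2 fell in the WT-labelled line (median -0.12), beside 19.8% of all tested genes higher and 17.9% lower in the KO-labelled line, and 30.8% higher and 24% lower in the WT-labelled line. S100A2, a calcium-binding protein gene of basal epithelium, fell in both lines, by 0.55 in the KO-labelled (SE 0.091) and 0.47 in the WT-labelled line (SE 0.074). CSTA, a cornified envelope precursor gene, rose by 1.29 in the KO-labelled line (SE 0.16) and by 1.86 in the WT-labelled line (SE 0.13). The summed FPKM of the 20 was 149 to 168 with SET siRNA and 202 to 229.7 with control siRNA in the KO-labelled line, and 263 to 275 with SET siRNA and 324 to 366 with control siRNA in the WT-labelled line, most of it S100A2. Without the first WT-labelled SET siRNA library 1 was higher in the KO-labelled line with SET siRNA. SPRR1A was listed at 0 in every library. The part of these markers in the keratin levels was not tested.

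Of 20 osteoblast and mesenchymal markers 14 were tested, and most fell with SET siRNA. In the KO-labelled line 2 rose and 10 fell (median -0.44), and in the WT-labelled line none rose and 10 fell (median -0.59). In all tested genes 19.8% rose and 17.9% fell in the KO-labelled line, and 30.8% rose and 24% fell in the WT-labelled line. SPARC, a bone matrix gene, fell by 1.44 in the KO-labelled line (SE 0.066) and by 1.45 in the WT-labelled line (SE 0.054). Without the second KO-labelled SET siRNA library or the second KO-labelled control siRNA library 1 rose in the KO-labelled line, and without the third WT-labelled control siRNA library 1 rose in the WT-labelled line. Between the lines 7 were higher and 4 lower in the KO-labelled line with SET siRNA (median 0.27), and 4 were higher and 6 lower with control siRNA (median -0.11), set beside 23.6% of all tested genes higher and 24.8% lower with SET siRNA, and 25.7% higher and 22.2% lower with control siRNA. The summed FPKM of the 20 was 550.2 to 598 with SET siRNA and 863 to 982 with control siRNA in the KO-labelled line, and 660.0 to 729 with SET siRNA and 1093 to 1148 with control siRNA in the WT-labelled line. The part of these markers in the keratin levels was not tested. Where a gene list above had no call in a direction by limma, it also had no gene in that direction at an unadjusted p under 0.05, except that 2 epithelial markers were higher in the KO-labelled line with SET siRNA.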

How the data were processed

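Total RNA was sequenced from 10 libraries in 4 groups. The authors deposited 1 table per library with FPKM and its interval for 25593 entries, per the file headers. The submitters' processing notes name bcl2fastq 1.8.4, TopHat2 2.0.4 and Cufflinks 2.0.2 without roles, and genome build, annotation and strand setting were not given in the sources used here. Depth is not stated. Fragments implied by the authors' intervals are estimates, so no count test was run, and how reads of similar keratin genes were split is unknown.

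From the deposited FPKM, limma 3.58.1 (R 4.3.3) was fitted with a variance trend to log2(FPKM + 1) of the 14813 genes that reached an FPKM of 1 in 2 or more libraries. A gene that reached this minimum in only 1 line or group entered where it was high, which favours a call in that direction. All 10 libraries and 4 groups entered 1 fit with 5 contrasts, and Benjamini-Hochberg adjusted p-values under 0.05 were called. Fold differences of FPKM are ratios of group means, and log2 differences understate the change of low genes because of the pseudocount of 1. The procedure was tested on simulated data. Python 3.11.15, numpy 2.4.6, pandas 2.3.3 and biopython 1.88 gave the descriptions and matplotlib 3.10.9 the figures. Coordinates are 1-based, and sequences come from GENCODE 29. Shared windows were exact 50-base matches, sought only in transcripts of keratin genes and their copies.

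The 8 keratins and the gene lists were chosen with earlier results of these data known. The text names the 8 keratins, SET and CDKN1A, the 5 genes most like KRT17 and KRT8, up to 4 called genes of largest change per list and contrast, and defining markers near 0. Other keratins and neighbours named outside that rule were chosen after their values were seen. Alternatives covered the pseudocount, the filter, scaling, the libraries fitted, a replicate block, the variance trend, the status column and leaving out each library.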

Additional observations from a re-analysis of the deposited data

Results flagged for a closer look

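For 24 named genes the KO-labelled and WT-labelled line responded differently to SET siRNA by the limma interaction test with an adjusted p under 0.05. In all 25 of the 104 keratins and list genes tested were called, or 24.0%, close to the 19.1% called over all tested genes, and the text names up to 4 per list. Values are the log2 response in the KO-labelled line minus that in the WT-labelled line, and groups of 2 or 3 libraries are too small for a test of single outlying libraries. Among the 8 keratins they were KRT14 at 0.63 (adjusted p = 0.0119), KRT18 at 0.38 (adjusted p = 0.00799) and KRT81 at 0.38 (adjusted p = 0.0482). Among other keratins they were KRT34 at 0.81 and KRT75 at 0.53.

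Among other filament genes NEFL was at -0.85, LMNB2 at 0.61, LMNB1 at 0.56 and NES at 0.39. Of the anchor genes PKP2 was at 0.37 and PKP4 at 0.31, and of the keratin-binding genes SFN was at 0.45 and TCHP at 0.30. The regulators were GLI2 at 0.87, GLI1 at 0.70, FOSL1 at 0.37 and STAT3 at -0.49. Epithelial markers were GRHL3 at -1.68 and CLDN4 at -0.48, and squamous markers were SPRR2D at 1.31 and SERPINB5 at -1.13. GRHL3 and SERPINB5 passed the FPKM minimum only through WT-labelled libraries and averaged highest with SET siRNA there. That route into the test favours a negative value for both. The mesenchymal markers were PRRX1 at 0.53, PDGFRB at 0.46 and CDH2 at 0.28.

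Of the 24 calls, 12 held without each library in turn and 12 were lost without at least 1 library. In the KO-labelled line, 11 were lost without the first SET siRNA library (adjusted p of 0.0577 to 0.133, KRT14, KRT81 and KRT75 among them) and 10 without the second (0.0501 to 0.133). There 2 were lost without the first control siRNA library (0.0544 to 0.0618) and 9 without the second (0.0546 to 0.139). In the WT-labelled line 7, 6 and 5 were lost without the first, the second and the third SET siRNA library, and 7, 6 and 4 without the first, the second and the third control siRNA library. KRT81, SFN, TCHP, FOSL1, PKP2 and PDGFRB were lost most often. KRT18 was among the 12 that held.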

How the results depend on the processing

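The count of genes called with SET siRNA in the KO-labelled line was 5571, and 3202 when only the 4 libraries compared were fitted. It ranged from 3463 to 5832 when each library was left out, with 3463 and 3696 without the first and the second KO-labelled SET siRNA library. The count for the difference between responses was 2831 and ranged from 1143 to 4589. It was 1143 and 1466 without the first and the second KO-labelled SET siRNA library, 4589 and 1724 without the first and the second KO-labelled control siRNA library, and 1820 and 1760 without the first and the second WT-labelled SET siRNA library. Without the second KO-labelled control siRNA library, the KRT7 difference between responses was -0.040 and the KRT81 change with SET siRNA in that line was -0.0047. Without the first they were 0.32 and 0.28. Without the first KO-labelled SET siRNA library the KRT7 difference was -0.034. The KRT81 call was also lost with no filter on low values (adjusted p = 0.121) and with no variance trend (0.0609). The other counts over all genes kept within 1.5 times under the alternatives run, apart from those printed here. The cause of these changes was not tested.

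Libraries with the same replicate number deviated together with correlations of -0.083 to 0.228. The highest, 0.217 and 0.228, were between control siRNA libraries of the 2 lines. Deviations of 2 libraries from their mean mirror each other, so correlations with KO-labelled libraries cannot decide whether the numbers pair the samples. Between the siRNA groups of the WT-labelled line, same-numbered libraries gave -0.083, -0.026 and 0.073. Libraries of different number gave -0.095 to 0.126 there, so the same-numbered ones did not stand out. With a replicate block, calls numbered 6027 and 8472 with SET siRNA in the KO-labelled and WT-labelled line. They numbered 7233 and 7189 between the lines with SET and control siRNA, and 3400 for the difference between responses. Depth limits KRT7, KRT14 and KRT19, and groups of 2 give a weak estimate of spread.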

Other observations

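The processed pseudogene KRT8P41 on chromosome 11, a copy of KRT8, was lower in the KO-labelled line, as KRT8 was. It was 0.657 ± 0.0848 FPKM with SET siRNA and 0.704 ± 0.276 FPKM with control siRNA in the KO-labelled line (SD, n = 2 each), against 3.13 ± 0.172 and 3.84 ± 0.164 FPKM in the WT-labelled line (n = 3 each). The copy KRT18P55 on chromosome 17 was 0.126 ± 0.0659 FPKM with SET siRNA and 0.0784 ± 0.0291 FPKM with control siRNA in the KO-labelled line, against 1.38 ± 0.152 and 1.03 ± 0.0964 FPKM in the WT-labelled line. Whether their reads came from the parent genes was not tested. KRT79, a type II keratin on chromosome 12, averaged 0.253 FPKM with SET siRNA and 0.246 FPKM with control siRNA in the KO-labelled line. KRT79 averaged 0.765 and 0.841 FPKM in the WT-labelled line.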
